A study of Mus musculus with 6 samples.

Results

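The 10 genes described here are members of the poly(ADP-ribose) polymerase (PARP) family together with the ubiquitin ligase gene Dtx3l, chosen by name and found in the deposited gene tables by NCBI gene identifier, out of 17254 genes seen in any library. They comprise 6 genes linked to interferon (Parp9, Dtx3l, Parp14, Parp10, Parp11 and Parp12), the DNA-repair genes Parp1 and Parp2, and Parp3 and Parp4, which were counted in neither set, although Parp3 acts at DNA breaks and Parp4 is in the study's own interferon list. Gene expression was measured by RNA-seq in 6 libraries of cultured mouse neural stem and progenitor cells (NSPCs) after 48 h. There were 2 control libraries, 2 libraries from cells given paraquat (PQ), a compound that cycles with oxygen in the cell and generates superoxide, and 2 from cells given N-acetylcysteine (NAC), a thiol antioxidant. The study's methods give 5 µM PQ and 5 mM NAC for the sequenced cells. In the labels, a paraquat dose, 5 µM, is stated only for the pair of libraries titled Con and PQ, of which Con had none. The labels of this pair also give the strain C57BL/6, the genotype "Ink/Ark knockout" and RNA extraction with NucleoSpin. The other 4 libraries (NSC 8, control; NSC 9, PQ; NSC 10 and NSC 13, NAC) are labelled with TRIZOL extraction and carry no strain or genotype label. The study's methods describe the cells as an immortalized Ink/Arf-/- culture from the subventricular zone of newborn mice, a mixture of stem cells and progenitors, so the libraries are cultures of a single line and not separate animals. The p-values therefore measure only the spread between these libraries. Con and the library titled PQ are called the NucleoSpin control and the NucleoSpin PQ library below.

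Expected counts, which share reads between similar genes, summed to 9849392 in the NucleoSpin control, 10040827 in NSC 8, 10388731 in the NucleoSpin PQ library, 9680436 in NSC 9, 10698241 in NSC 10 and 9907726 in NSC 13. Cdkn2a, the gene of the Ink/Arf locus, had 137 counts in the NucleoSpin control, 162 in NSC 8, 120 in the NucleoSpin PQ library, 130 in NSC 9 and NSC 10 and 131 in NSC 13. A count per gene does not show on which exons reads lie, so the level of Cdkn2a does not test the labelled deletion. The 8 markers of neural stem and progenitor cells were all measured above the filter, with Vim the most abundant, and their summed FPKM (counts scaled by transcript length and library total) was 3403 and 3456 in control, 3723 and 3778 with PQ, and 2686 and 2602 with NAC. Markers of neurons summed to 2.8 FPKM or less in every library, those of microglia and macrophages to at most 4.59, those of endothelium to at most 0.58 and those of fibroblasts and pericytes to at most 2.24. Markers of oligodendrocyte progenitors, chiefly Olig2, summed to 330 and 338 in control, 322 and 277 with PQ, and 360 and 370 with NAC, where Pdgfra rose (log2 fold change 0.40, edgeR). The 3 astrocyte markers summed to 3.54 and 4.21 in control, 5.59 and 5.15 with PQ, and 7.84 and 8.38 with NAC. Of these, Gfap (log2 fold change 1.23, adjusted p = 3.15e-04, edgeR) and Aqp4 (1.76, adjusted p = 1.36e-05, edgeR) rose in NAC against control and Aldh1l1 (1.17, adjusted p = 0.00351, edgeR) in PQ. Whether such shifts in cell state bear on the PARP genes was not tested.

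PARP enzymes move ADP-ribose from NAD onto proteins. PARP1 and PARP2 bind broken DNA and build long chains that recruit repair proteins, whereas most of the interferon-linked members add single ADP-ribose units or none, and several of their genes are induced by type I or type II interferon. PARP9 works in a complex with DTX3L, a ubiquitin ligase, and PARP14 carries macrodomains that bind ADP-ribose. In NSPCs, interferon is known to favour quiescence, while PARP1 and PARP2 serve the repair of breaks that arise during replication.

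Per transcript length, Parp1 was the most abundant of the 10 genes, with a mean of 35.3 ± 6.03 FPKM (SD, n = 2) in the control libraries, followed by Parp2 (14.6 ± 0.856), Parp3 (14.3 ± 0.134), Parp9 (10.9 ± 2.02), Dtx3l (8.22 ± 0.127), Parp11 (5.28 ± 0.891), Parp14 (3.96 ± 0.354), Parp10 (3.9 ± 0.424), Parp4 (2.33 ± 0.177) and Parp12 (0.695 ± 0.0495). Parp2 and Parp3, and likewise Parp14 and Parp10, did not differ beyond their spread. A mean of 1 FPKM over the 6 libraries was required for testing, and 9 of the 10 members passed it. Parp12, which encodes a zinc-finger PARP with antiviral activity, fell below it.

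**Figure D1:**
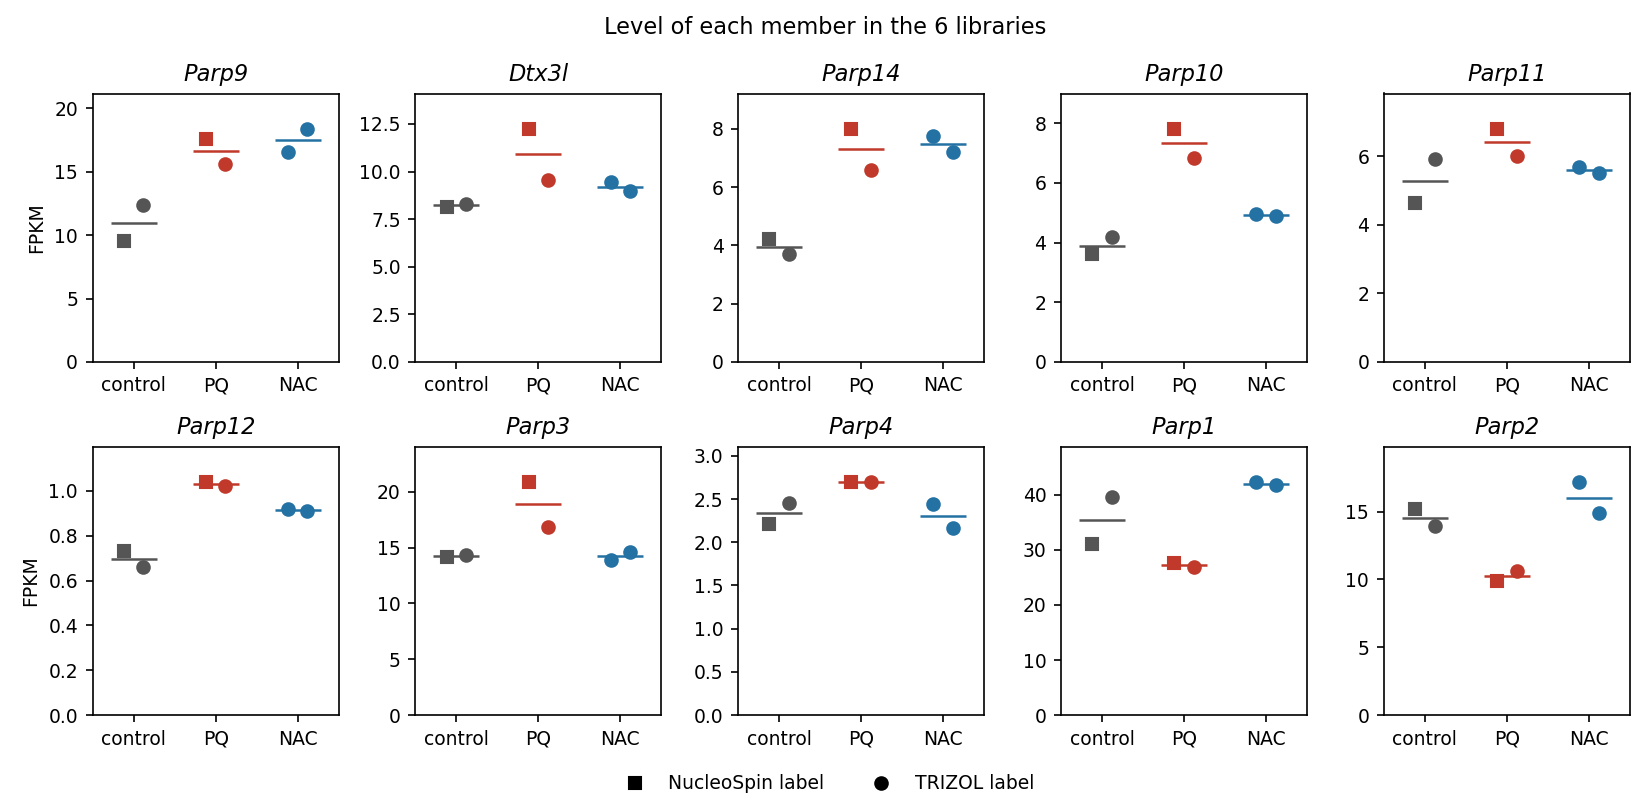
Level of each member in FPKM (vertical axes, from 0), 1 point per library, squares for the NucleoSpin and circles for the TRIZOL label, lines at the group means. Parp14 lies between 3.71 and 4.21 in control and between 6.57 and 8.01 in PQ and NAC, whereas Parp1 lies lowest in PQ, at 26.85 and 27.51.

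PQ was compared with control to ask how an oxidant changes these genes. Of the 6 interferon-linked members, 5 were tested and 4 passed the test (edgeR quasi-likelihood test, adjusted p under 0.05), where 19.2% of the 11717 genes tested did. The rises were largest for Parp10 and Parp14, 1.86-fold and 1.81-fold, followed by Parp9 (1.49-fold) and Dtx3l (1.30-fold). Parp1 and Parp2 also passed, and both fell. The median log2 fold change of the 5 interferon-linked members tested was 0.58, that of Parp1 and Parp2 was -0.47, and that of all genes tested was -0.0013. Dtx3l, Parp12 and Parp4 are among the genes that the study lists for its type I interferon response, a list that may have been chosen on these libraries, so their direction is not independent evidence. A lower level in bulk RNA cannot be told apart from fewer cells that express a gene.

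Parp14 (NCBI gene 547253, chromosome 16) had 4.21 FPKM in the NucleoSpin control and 3.71 in NSC 8, 8.01 in the NucleoSpin PQ library and 6.57 in NSC 9, and 7.76 and 7.22 in NSC 10 and NSC 13. Both PQ and both NAC libraries lay above both control libraries, and PQ and NAC overlapped. The log2 fold change was 0.85 ± 0.12 (SE) in PQ against control (adjusted p = 1.12e-04, edgeR) and 0.87 ± 0.12 in NAC against control (adjusted p = 4.53e-05, edgeR). Between PQ and NAC it was -0.02 ± 0.12 (adjusted p = 0.92, edgeR), a difference with an error that leaves room for a small shift in either direction. The rises in PQ and in NAC each passed the test under all 14 alternatives, with log2 fold changes from 0.72 to 0.98 in PQ and from 0.78 to 0.99 in NAC. Within the libraries of each label, PQ minus control on the log2 CPM scale (counts scaled to the library total) was 0.88 for NucleoSpin and 0.81 for TRIZOL.

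Parp9 (NCBI gene 80285, chromosome 16) had 9.52 and 12.37 FPKM in the NucleoSpin control and NSC 8, 17.61 and 15.62 in the NucleoSpin PQ library and NSC 9, and 16.54 and 18.42 in NSC 10 and NSC 13. As with Parp14, each treated library was above each control library and the 2 treatments overlapped. Its log2 fold change was 0.58 ± 0.12 in PQ against control (adjusted p = 0.00288, edgeR), 0.63 ± 0.12 in NAC against control (adjusted p = 0.00117, edgeR) and -0.05 ± 0.12 in PQ against NAC (adjusted p = 0.779, edgeR). The PQ call was lost without the NucleoSpin PQ library (log2 fold change 0.50, adjusted p = 0.0554, edgeR), the highest of 14 alternatives whose lowest was 3.91e-05. The control libraries differed by 0.36 on the log2 CPM scale, and PQ minus control was 0.84 within the NucleoSpin label and 0.33 within the TRIZOL label.

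Dtx3l (NCBI gene 209200), which encodes the ligase partner of PARP9, was not called in NAC, where Parp9 was, and the difference between the genes was not tested. Its level was 8.13 and 8.31 FPKM in the NucleoSpin control and NSC 8, 12.26 and 9.57 in the NucleoSpin PQ library and NSC 9, and 9.44 and 8.97 in NSC 10 and NSC 13. The NucleoSpin PQ library stood above the other 5, while NSC 9 was little above both NAC libraries. The log2 fold change was 0.38 ± 0.12 in PQ against control (adjusted p = 0.0293, edgeR), 0.12 ± 0.12 in NAC against control (adjusted p = 0.55, edgeR) and 0.27 ± 0.12 in PQ against NAC (adjusted p = 0.092, edgeR). The PQ call was lost without the NucleoSpin PQ library (log2 fold change 0.21, adjusted p = 0.429, edgeR), without the NucleoSpin control (adjusted p = 0.0667, edgeR), with DESeq2 (adjusted p = 0.0637) and with limma on log2 FPKM with an offset of 0.1 or 1 (adjusted p = 0.0763 and 0.0815), in a range from 0.0123 to 0.429 over 14 alternatives. Without NSC 9, Dtx3l passed in PQ against NAC (log2 fold change 0.42, adjusted p = 0.0305, edgeR, in a range from 0.0305 to 0.696). Within the labels, PQ minus control on the log2 CPM scale was 0.54 for NucleoSpin and 0.20 for TRIZOL.

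Parp9 and Dtx3l lie side by side on chromosome 16, where their annotated spans overlap by 558 bases in the RefSeq table of assembly GRCm38.p6, and Parp14 is the next protein-coding gene beside Dtx3l, 54997 bases away. Counts of overlapping genes are uncertain because the sources used here do not say whether counting used the strand, although the study's methods name a strand-specific library kit. Dtx3l also had fractional counts in 5 of the 6 libraries, so some of its reads were shared with other genes. Parp9 had fractional counts in 0 of the 6 libraries, so its counts show no split of reads with Dtx3l. The ratio of Parp9 to Dtx3l in FPKM was 1.17 in the NucleoSpin control and 1.49 in NSC 8, 1.44 and 1.63 in the PQ libraries (NucleoSpin, NSC 9), and 1.75 and 2.05 in NSC 10 and NSC 13. The ratio was above both control libraries in both NAC libraries, and the PQ libraries overlapped with control. No test was run on this ratio, because the exact permutation test of 2 against 2 libraries gives a two-sided p of 0.333 at the least.

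**Figure D2:**
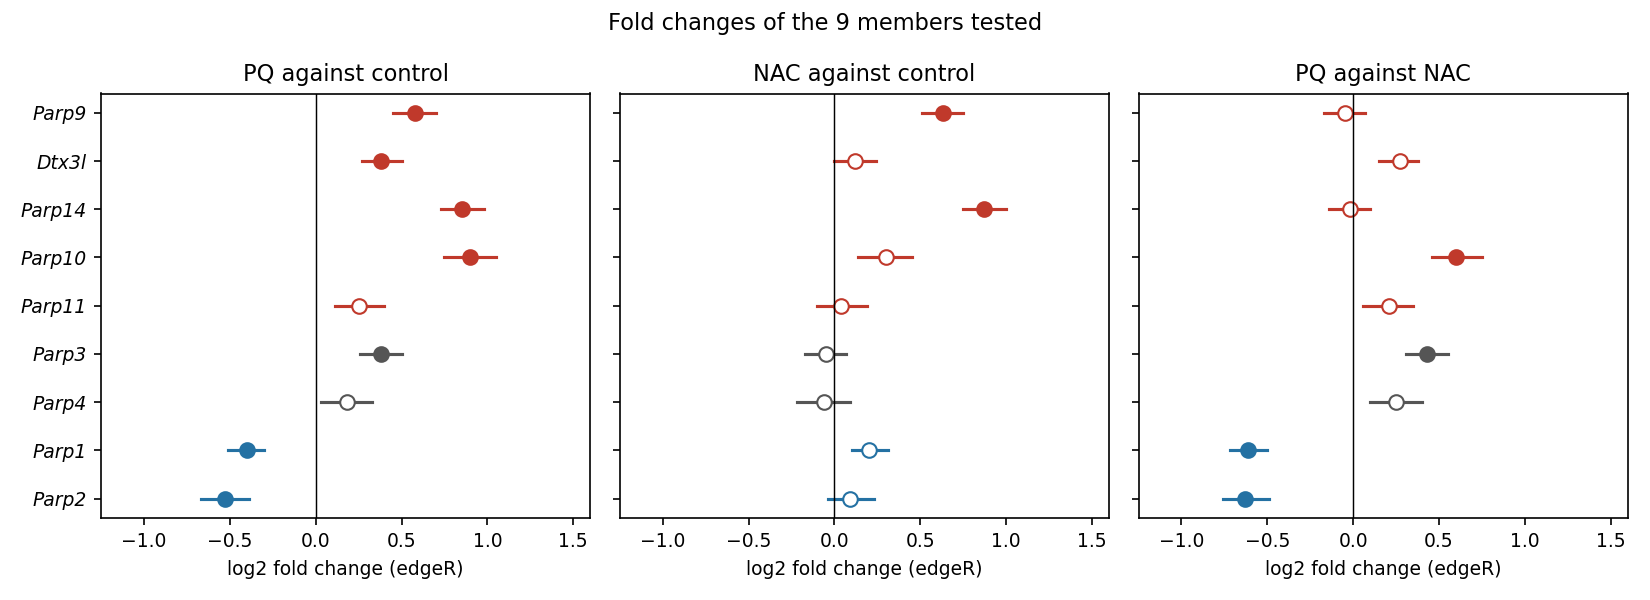
Log2 fold change (horizontal axes, edgeR) with 1 SE to either side of the 9 members tested, filled where the adjusted p was under 0.05, with interferon-linked members in red, Parp3 and Parp4 in grey, Parp1 and Parp2 in blue. Parp9 and Parp14 are filled in both comparisons with control and lie near 0 between PQ and NAC, at -0.05 and -0.02.

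Parp10 (NCBI gene 671535, chromosome 15), a mono-ADP-ribosyltransferase, was higher in PQ than in both of the other groups. It had 3.60 FPKM in the NucleoSpin control and 4.20 in NSC 8, 7.82 in the NucleoSpin PQ library and 6.82 in NSC 9, and 4.95 and 4.90 in NSC 10 and NSC 13. No PQ library overlapped with a control or NAC library. The log2 fold change was 0.90 ± 0.15 in PQ against control (adjusted p = 3.99e-04, edgeR), 0.30 ± 0.16 in NAC against control (adjusted p = 0.206, edgeR) and 0.60 ± 0.15 in PQ against NAC (adjusted p = 0.00386, edgeR). Within the labels, PQ minus control was 1.08 for NucleoSpin and 0.69 for TRIZOL on the log2 CPM scale. The rise over control passed under all 14 alternatives, from 0.76 to 1.01, and the difference from NAC was lost without the NucleoSpin PQ library (log2 fold change 0.51, adjusted p = 0.0601, edgeR, the highest of 14, with a lowest of 8.40e-04).

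Parp11 and Parp12 were not called. Parp11 (NCBI gene 101187, chromosome 6) ranged from 4.65 to 5.91 FPKM in control, 6.02 to 6.81 in PQ and 5.51 to 5.70 in NAC, and PQ differed from control by 0.25 ± 0.15 on the log2 scale (adjusted p = 0.257, edgeR), with fractional counts in all 6 libraries. Parp12 (NCBI gene 243771, chromosome 6) had 24 and 22 counts in control, 36 and 33 with PQ, and 33 and 30 with NAC. Where the filter was dropped or set to 10 counts in 2 libraries, its log2 fold change in PQ against control was 0.54, with adjusted p = 0.304 and 0.244 (edgeR).

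NAC was compared with control to ask what an antioxidant does without added oxidant. Parp9 and Parp14 were the 2 interferon-linked members that passed, of 5 tested and 6 in all, where 18.7% of all genes tested passed. Neither Parp1 (log2 fold change 0.20 ± 0.11, adjusted p = 0.206, edgeR) nor Parp2 (0.09 ± 0.13, adjusted p = 0.687, edgeR) passed, with 0 under an unadjusted p of 0.05 and 0 by DESeq2 or limma, although Parp1 did without NSC 8 (0.38, adjusted p = 0.0164, edgeR, in a range from 0.0164 to 0.845 over 14 alternatives). The median log2 fold change of the 5 interferon-linked members was 0.30, and it was 0.19 without the NucleoSpin control and 0.41 without NSC 8. Both NAC libraries carry the TRIZOL label, in which there is 1 control library. Against that library, NSC 8, the values on the log2 CPM scale were 1.03 and 0.91 for Parp14 and 0.39 and 0.53 for Parp9 in NSC 10 and NSC 13. With the labelled preparation as a covariate both still passed in NAC, at log2 fold changes of 0.99 and 0.59. The comparisons of PQ and of NAC with control share their control libraries.

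In PQ against NAC, 1 of the 5 interferon-linked members tested passed, Parp10, where 31.6% of all genes tested did. The share is below that over all genes and is not a result about the members as a set. It was 0 without the NucleoSpin PQ library by edgeR, although Parp10 stayed under an unadjusted p of 0.05, and 2 without NSC 9. Parp1 and Parp2 both passed, with lower levels in PQ.

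Parp3 and Parp4 were measured beside the others. Parp3 (NCBI gene 235587, chromosome 9), which acts at DNA breaks by adding single ADP-ribose units, had 14.16 and 14.35 FPKM in the NucleoSpin control and NSC 8, 20.90 and 16.87 in the NucleoSpin PQ library and NSC 9, and 13.86 and 14.62 in NSC 10 and NSC 13. Its PQ libraries lay above the other 4, and control and NAC overlapped. The log2 fold change was 0.38 ± 0.12 in PQ against control (adjusted p = 0.03, edgeR) and 0.43 ± 0.12 in PQ against NAC (adjusted p = 0.00912, edgeR). The first call was lost without the NucleoSpin PQ library (log2 fold change 0.23, adjusted p = 0.389), the NucleoSpin control (0.0698) or NSC 8 (0.0579) by edgeR, with DESeq2 (0.074) and with limma at either offset (0.0534 and 0.0549), the lowest of 14 being 0.0191. The second was lost without the NucleoSpin PQ library (log2 fold change 0.28, adjusted p = 0.187), without NSC 10 (0.0768) and with the labelled preparation as a covariate (0.0676) by edgeR, the lowest being 0.00339. Its PQ minus control was 0.51 within the NucleoSpin label and 0.23 within the TRIZOL label. Parp4 (NCBI gene 328417, chromosome 14), the PARP of vault particles, had 2.21 and 2.46 FPKM in control, 2.70 in both PQ libraries and a mean of 2.3 ± 0.191 with NAC, and PQ differed from control by 0.18 ± 0.15 on the log2 scale (adjusted p = 0.445, edgeR). Its counts were fractional in all 6 libraries.

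Parp1 and Parp2 took the opposite course in PQ. Parp1 (NCBI gene 11545, chromosome 1) had 31.08 FPKM in the NucleoSpin control and 39.61 in NSC 8, 27.51 in the NucleoSpin PQ library and 26.85 in NSC 9, and 42.31 and 41.66 in NSC 10 and NSC 13. The PQ libraries were lowest and the NAC libraries highest, with no overlap between groups. Parp2 (NCBI gene 11546, chromosome 14) had 15.17 and 13.96 FPKM in the NucleoSpin control and NSC 8, 9.91 and 10.63 in the NucleoSpin PQ library and NSC 9, and 17.20 and 14.87 in NSC 10 and NSC 13. Its PQ libraries were below the other 4, and control and NAC overlapped.

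Against NAC, Parp1 fell by 0.61 ± 0.11 on the log2 scale in PQ (adjusted p = 2.70e-04, edgeR) and Parp2 fell by 0.63 ± 0.14 (adjusted p = 0.00195, edgeR), and both calls held under all 14 alternatives. Against control, Parp1 fell by 0.40 ± 0.11 (adjusted p = 0.013, edgeR) and Parp2 fell by 0.53 ± 0.14 (adjusted p = 0.0122, edgeR), and these calls depended on single libraries. That of Parp1 was lost by edgeR without NSC 8, where the log2 fold change was -0.23. It was also lost without the NucleoSpin PQ library (-0.41) or NSC 9 (-0.40), where the fold change was about as large as with all libraries. With limma at either offset it was lost as well (adjusted p = 0.0689 and 0.0695). That of Parp2 was lost without the NucleoSpin control (log2 fold change -0.46, adjusted p = 0.0623) or the NucleoSpin PQ library (-0.47, adjusted p = 0.136) by edgeR, the lowest of 14 being 0.0036. Within the labels, PQ minus control on the log2 CPM scale was -0.22 (NucleoSpin) and -0.57 (TRIZOL) for Parp1, and -0.66 and -0.39 for Parp2.

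The summed FPKM of the 6 interferon-linked members, divided by that of Parp1 and Parp2 in the same library, shows the balance of the sets. It was 0.667 and 0.656 in the NucleoSpin control and NSC 8, 1.43 and 1.22 in the NucleoSpin PQ library and NSC 9, and 0.761 and 0.812 in NSC 10 and NSC 13. The PQ libraries were thus those in which the interferon-linked transcripts outnumbered those of Parp1 and Parp2. In the NAC libraries the sum of the interferon-linked members, 45.3 and 45.9, was close to the 45.6 of NSC 9 and below the 53.5 of the NucleoSpin PQ library, and above the 30.8 and 35.2 of the control libraries. The sum of Parp1 and Parp2 was 59.5 and 56.5 in the NAC libraries against 37.4 and 37.5 in the PQ libraries. The ratio is a description without a test.

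**Figure D3:**
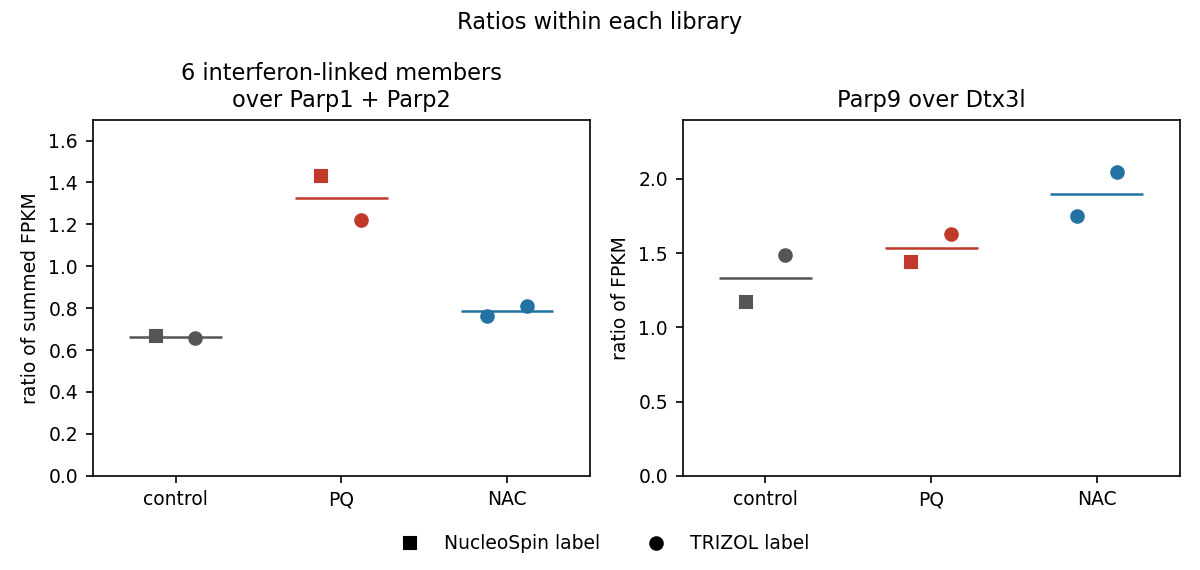
Summed FPKM of the 6 interferon-linked members over that of Parp1 and Parp2 (left) and FPKM of Parp9 over Dtx3l (right), 1 point per library (squares NucleoSpin, circles TRIZOL), lines at the group means. The left ratio exceeds 1 in the PQ libraries, at 1.43 and 1.22, and the right ratio is highest in the NAC libraries, at 1.75 and 2.05.

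The genes upstream of the interferon-linked members were compared next. Irf9 (log2 fold change 0.61, adjusted p = 0.00363, edgeR) and Stat2 (0.49, adjusted p = 0.00484, edgeR), transcription factors downstream of the type I interferon receptor, rose in PQ against control, while the receptor genes Ifnar1 and Ifnar2 had 0.09 and 0.08. Both calls were lost without the NucleoSpin PQ library, where the adjusted p by edgeR was 0.112 for Irf9 and 0.12 for Stat2, each the highest of 14 (lowest 1.88e-04 and 7.06e-04). In NAC against control Irf9 had 0.10 and Stat2 0.08, and neither passed. Among 3 further interferon regulatory factors, Irf7 rose in PQ by 1.34 (adjusted p = 7.56e-06, edgeR) and had -0.23 in NAC against control. Irf1, which is itself induced by interferon, rose in PQ by 0.54 (adjusted p = 0.00302, edgeR) and in NAC by 0.70 (adjusted p = 2.10e-04, edgeR). Its PQ call was lost without the NucleoSpin PQ library (adjusted p = 0.0908, edgeR, the lowest of 14 being 2.66e-04), and its NAC call passed in all 14.

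Of 22 classical interferon-stimulated genes, 20 were tested and 20 rose in PQ against control, where 19.2% of all genes tested passed, with a median log2 fold change of 1.00, against -0.0013 over all genes tested. Over the 14 alternatives between 16 and 22 rose, where 22 were tested without a filter or with at least 10 counts in 2 libraries, and 20 in the others. The smallest p belonged to Rsad2, Ifit1 (log2 fold change 2.02), Ifit3 (2.18) and Usp18 (1.52), which restrain viruses or, for Usp18, the receptor. In NAC against control 5 of the 20 rose, where 18.7% of all genes tested passed in either direction, namely Ifit2 (0.52), Ifit3 (1.10), Rsad2 (0.65), Trim25 (0.38) and Samd9l (0.75), and the alternatives gave 2 to 6. The median was 0.20, and it was 0.07 without NSC 10, 0.09 without NSC 8 and 0.31 with the labelled preparation as a covariate. Without NSC 10 the calls of Rsad2 (adjusted p = 0.0792), Samd9l (0.0574) and Trim25 (0.0738) were lost by edgeR, and that of Trim25 also without NSC 13 (0.149) or the NucleoSpin control (0.219), so that it passed in 8 of 14 alternatives, with limma and the preparation covariate (0.0746) among those that lost it. Calls were also gained in NAC. With the preparation covariate Ifit1 (0.63, adjusted p = 0.00829, edgeR) and Rtp4 (0.52, adjusted p = 0.0157, edgeR) passed, and without the NucleoSpin control Ifit1 (0.74, adjusted p = 0.00771, edgeR) and Rtp4 (0.52, adjusted p = 0.0263, edgeR) did, in 2 of 14 alternatives each, with a highest of 0.874 and 0.683. Without NSC 13 Herc6 passed (0.48, adjusted p = 0.0469, edgeR, the highest of 14 being 0.861). In PQ against NAC 17 rose, where 31.6% of all genes tested passed, and the alternatives gave 14 to 20. The 3 that did not pass were Ifit2 (-0.13), Trim25 (0.21) and Samd9l (0.30), of which Samd9l passed in 3 of 14 alternatives, among them without NSC 10 (0.55, adjusted p = 0.0204, edgeR) and without NSC 9 (adjusted p = 0.04, edgeR), the highest being 0.71. Parp10 and Irf7 passed in PQ against NAC as those 17 did, and Parp9, Parp14 and Irf1 did not pass there, as Ifit2, Trim25 and Samd9l did not. These groupings were made after the values were seen. A p that misses the threshold does not show equal levels.

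**Figure D4:**
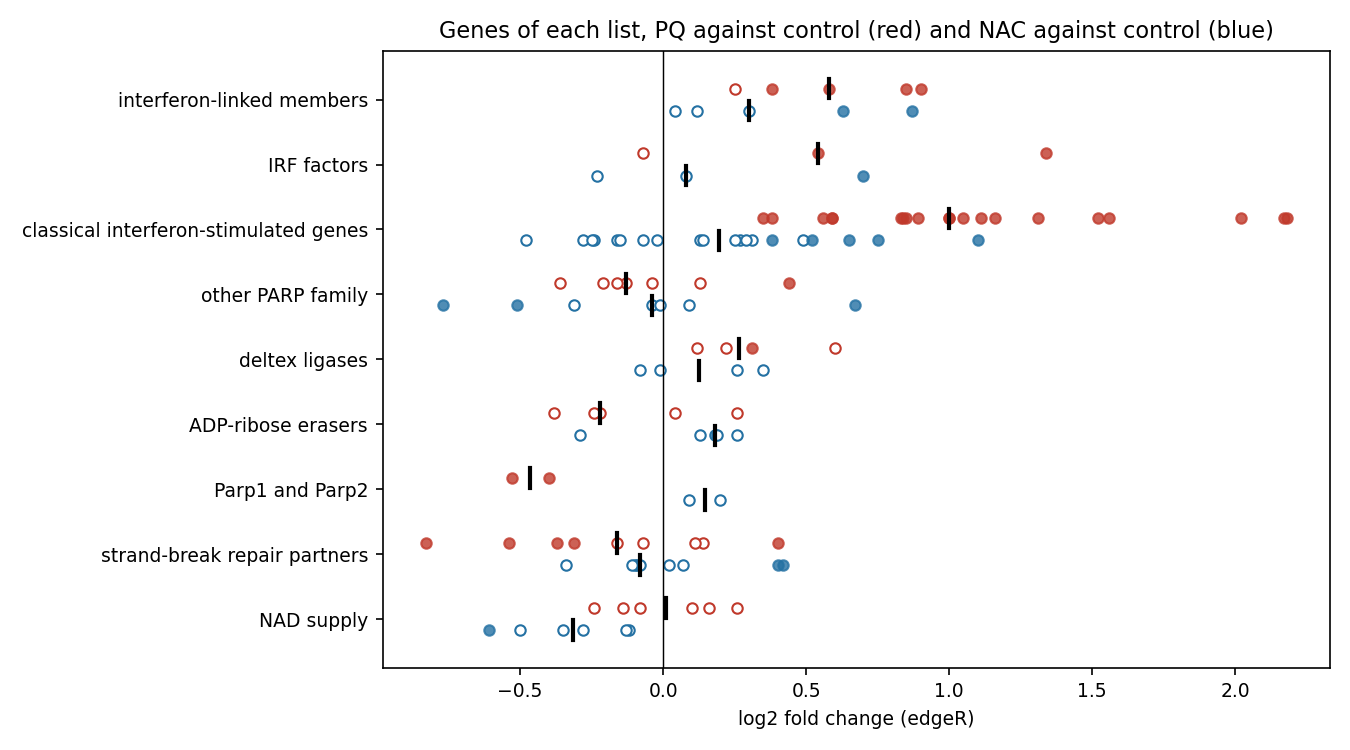
Log2 fold changes (horizontal axis, edgeR) of the tested genes of each list in PQ (red) and NAC (blue) against control, 1 point per gene, filled where the adjusted p was under 0.05, black bars at the medians. The classical interferon-stimulated genes have a median of 1.00 in PQ and 0.20 in NAC, and Parp1 and Parp2 lie at -0.40 and -0.53 in PQ.

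Partners of PARP1 and PARP2 in the repair of strand breaks were measured with 9 genes, all tested. In PQ against control 4 fell and 1 rose, where 19.2% of all genes tested passed, with a median of -0.16. The falls were those of Timeless (-0.83, adjusted p = 8.17e-05, edgeR), which binds PARP1 and travels with the replication fork, the chromatin remodeller Chd1l (-0.54, adjusted p = 0.00391, edgeR), the scaffold Xrcc1 (-0.31, adjusted p = 0.0365, edgeR) and Hpf1 (-0.37, adjusted p = 0.0421, edgeR), which completes the active site of PARP1. Polb, the polymerase of base excision repair, rose (0.40, adjusted p = 0.0454, edgeR). The alternatives gave between 1 and 4 falls and 0 or 1 rise. The fall of Timeless passed in all 14, that of Chd1l was lost without the NucleoSpin PQ library (adjusted p = 0.0583, edgeR), those of Xrcc1 and Hpf1 passed in 7 each and the rise of Polb in 5. With the labelled preparation as a covariate, which blocks PQ against control by preparation, the calls of Hpf1 (adjusted p = 0.0522), Xrcc1 (0.0548) and Polb (0.0583) were lost by edgeR. Without the NucleoSpin PQ library they were lost as well (adjusted p = 0.28, 0.206 and 0.142, edgeR), and without NSC 9 (0.0826, 0.129 and 0.194). The call of Hpf1 was also lost without the NucleoSpin control (0.222), that of Xrcc1 without NSC 8 (0.156), and that of Polb without NSC 8 (0.228), NSC 10 (0.0591) or NSC 13 (0.06), by edgeR. In NAC against control Timeless (0.40) and Aplf (0.42) rose and none fell, which is 2 of 9 where 18.7% of all genes tested passed. The alternatives gave 0 to 2 rises, with 0 without NSC 10 and 0 without NSC 8 by edgeR, where Timeless had an adjusted p of 0.135 and 0.0581, and Aplf passed in 5 of 14. In PQ against NAC Timeless fell by 1.23, Chd1l fell by 0.61 and Polb rose by 0.51, the last lost without NSC 10 (adjusted p = 0.0753) or NSC 9 (0.062) by edgeR, the lowest of 14 being 0.0026.

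For 4 genes of DNA replication and division, picked by hand after results were known, the log2 fold change was -1.13 for Mki67, -0.86 for Mcm2, -0.71 for Top2a and -0.56 for Pcna when PQ was set against control, each past the threshold by edgeR. In NAC against control they had 0.26, 0.14, 0.13 and 0.22, and none passed. They do not stand for all genes of replication, for which no list was examined. Among the neural stem and progenitor markers, Slc1a3 (-0.48) and Sox2 (-0.35) fell in PQ against control and Nes rose (0.34), by edgeR. For the interferon-linked members, 7 markers of microglia and macrophages were looked at. Aif1, Itgam, Csf1r, Tmem119 and Ptprc had at most 0.12 FPKM in every library, and Cx3cr1 had 0.53 and 0.54 in control, 0.64 and 0.93 in PQ, and 0.51 and 0.85 in NAC. P2ry12, the most abundant, had 1.28 to 1.52 FPKM in control, 1.90 to 2.26 in PQ and 2.63 to 3.88 in NAC, and rose in NAC against control (log2 fold change 1.18, adjusted p = 0.00329, edgeR).

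The genes with the most similar profiles were sought among 5930 tested genes that varied by at least 0.5 on the log2 CPM scale, by Pearson's r over the 6 libraries, which share their groups, so that r is a description only. The 4 genes nearest to Parp14 were Cxcl5 (r = 0.998), a neutrophil-attracting chemokine, Ttyh1 (0.993) and the guanylate-binding proteins Gbp6 (0.993) and Gbp10 (0.992), interferon-induced GTPases. These genes were picked for their likeness to Parp14, so their higher levels in PQ and NAC follow from the choice and are no separate result. The 4 nearest to Parp9 were Ppil2 (0.989), Frmd8 (0.987), Cln3 (0.987) and Atf7 (0.985), among which no gene of the interferon lists stood. Parp14 was at rank 260 from Parp9 (r = 0.86), Parp10 at 696 (0.71) and Dtx3l at 1059 (0.59), so that the partner gene of Parp9 was not among its nearest.

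The 4 genes nearest to Parp1 were Chaf1a (r = 0.995), Mcmbp (0.995), Cep250 (0.993) and Skp2 (0.993), with known roles in chromatin assembly behind the fork, MCM binding, the centrosome and cell cycle proteolysis. Their levels in PQ and NAC likewise follow from the choice. Parp2 was at rank 650 from Parp1 (r = 0.83), and Parp3 had r = -0.83. Parp9 had r = 0.03 with Parp1 and Parp14 had -0.18.

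**Figure D5:**
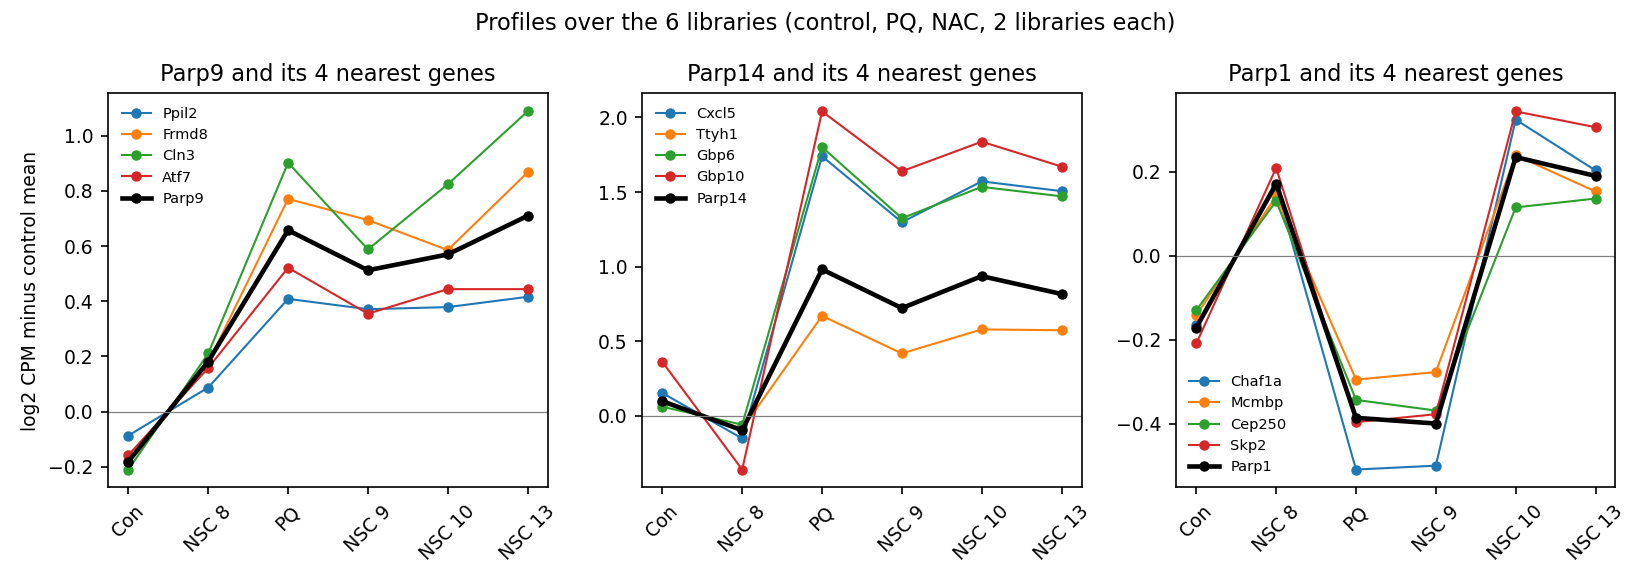
Log2 CPM minus the mean of the control libraries (vertical axes) in the control (Con, NSC 8), PQ (PQ, NSC 9) and NAC (NSC 10, NSC 13) libraries for Parp9, Parp14 and Parp1 (black) and the 4 genes nearest to each. The genes beside each member were picked for the likeness of their profiles, so their shared course follows from the choice.

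Promoter windows, from 250 bases before to 50 bases after a gene start, were taken from the RefSeq table of GRCm38.p6, which held 8 windows for 7 of the 10 members. Parp9, Parp10 and Parp14 had none. The windows were searched on both strands for the core of the interferon-stimulated response element (ISRE), GAAANNGAAA. The ISRE core was in 3.44% of all 32851 windows, in 2.89% of the windows of tested genes and in 9 of 18 windows of the classical interferon-stimulated genes. Among the members, Parp4 held 2 overlapping ISRE matches, the first at -150 from the start, and Parp11 held 1, at -44 from the start, in 1 of its 2 windows. The 30 bases around these matches are shown because both genes, which were not called in PQ or NAC, hold the letters that the windows of Dtx3l and Parp12 do not. Capitals mark the ISRE matches, and in Parp11 the match lies on the opposite strand.
Parp4, chr14:56575462-56575491, plus strand: acactctGAAAAAGAAAGTGAAAgtcctga
Parp11, chr6:127446786-127446815, plus strand: ttccttttagTTTCGATTTCttggaacccg
The start of Parp4 lies 130 bases from the neighbouring gene Cenpj, so the stretch shown for Parp4 overlaps the end of the annotated span of Cenpj. The windows of Dtx3l, Parp12, Parp3, Parp1 and Parp2 did not hold the core. A match is a run of letters and not a bound site, and its absence says only that these letters are not in the window.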

How the data were processed

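Per the labels, 2 libraries were processed with bcl2fastq 2.17, cutadapt, TopHat2 2.0.11 and Cufflinks 2.1.1 on mm9, and 4 with HISAT2 2.0.4, Bowtie2 2.2.5 and RSEM on mm10, whereas the study's methods name TopHat and Cufflinks on mm9. All 6 deposited tables have the columns that RSEM writes, and the 15719 genes listed in both label sets have the same transcripts in 100% of cases. For each gene the authors deposited its expected count and its FPKM, and genes without reads, which are not listed, were taken as 0.

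Expected counts were rounded and tested with edgeR 4.0.16 (TMM, glmQLFit, glmQLFTest, all 6 libraries, no covariate) in R 4.3.3 on the 11717 genes whose FPKM averaged 1 or more, and p was adjusted over these by Benjamini and Hochberg. SE was the log2 fold change over the root of F. The scripts were tested on simulated counts. Alternatives used DESeq2 1.42.0, limma 3.58.1, DESeq2 size factors, other filters, the labelled preparation as a covariate, only the 4 libraries compared, and each library left out. The members and lists were chosen with earlier results of these data known. Examples in a list are those with the smallest p in PQ against control or, where none passed, the highest mean FPKM. Protein sequences were not analysed here.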

Additional observations from a re-analysis of the deposited data

How the results depend on the processing

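Over the 14 alternatives, 378 values of single members were recomputed, of which 344 gave the same result, 23 were weaker, 2 stronger and 9 of the opposite sign. The count of interferon-linked members past the threshold, 4 in PQ against control, ranged from 2 to 4 when each library was left out, and the count in PQ against NAC, 1, ranged from 0 to 2. The count in NAC against control was 2 in every alternative. The median log2 fold change of the interferon-linked members ranged over the left-out libraries from 0.41 to 0.76 in PQ against control, from 0.19 to 0.41 in NAC against control and from 0.09 to 0.28 in PQ against NAC. Signs turned for values near 0 that were not called. In NAC against control Parp3 had 0.02 with the labelled preparation as a covariate, and over the left-out libraries Parp2 ranged from -0.02 to 0.20, Parp4 from -0.16 to 0.02 and Parp11 from -0.11 to 0.22. In PQ against NAC Parp9 ranged from -0.13 to 0.02 and Parp14 from -0.15 to 0.10. The cause was not tested. The number of genes changed fell from 2250 to 866 in PQ against control without the NucleoSpin PQ library, from 2186 to 1286 and 1427 in NAC against control without NSC 10 and NSC 13, and from 3708 to 2407 and 2343 in PQ against NAC without NSC 10 and without the NucleoSpin PQ library. Where a group was left with 1 library, it was assumed to vary like the others. By replicate number, no paired analysis was possible because the labels carry none. Each labelled preparation holds 1 control and 1 PQ library, so the fit with the preparation as a covariate blocks PQ against control by preparation, and both NAC libraries share 1 label. Parp12 had 22 to 36 counts per library, and the smallest change that could be detected for it was not computed.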

Other observations

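The other PARP genes were 7 in number and all tested. Parp8 rose in PQ against control (log2 fold change 0.44, adjusted p = 0.024, edgeR) and in NAC against control (0.67, adjusted p = 9.14e-04, edgeR). The PQ call was lost with DESeq2 (adjusted p = 0.0599) and without the NucleoSpin PQ library (0.244) or NSC 8 (0.0915) by edgeR, the lowest of 14 being 0.0145, and the NAC call passed in all 14. Zc3hav1, which encodes the zinc-finger antiviral protein PARP13, was not higher in either group. It had -0.36 in PQ (adjusted p = 0.0589, edgeR) and fell in NAC by 0.51 (adjusted p = 0.00858, edgeR), with 26.52 FPKM in the NucleoSpin control against 16.07 to 18.85 in the other 5 libraries. The NAC call was lost without the NucleoSpin control (adjusted p = 0.185) or NSC 13 (0.0778) and with the labelled preparation as a covariate (0.0877) by edgeR, and with limma at either offset (0.0837 and 0.0867), the lowest of 14 being 2.15e-05. Zc3hav1 passed as lower in PQ with the labelled preparation as a covariate (adjusted p = 0.0407, edgeR), without NSC 8 (5.37e-04) and without a filter (0.0105), in 3 of 14 alternatives whose highest was 0.677. Tiparp, a target of the aryl hydrocarbon receptor, fell in NAC by 0.77 (adjusted p = 3.85e-05, edgeR) and had -0.16 in PQ. The median of the list was -0.13 in PQ and -0.04 in NAC against control.

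Of the 8 names of enzymes that remove ADP-ribose, Adprs being the current name of Adprhl2, 5 genes were tested. None passed in either comparison with control by edgeR, DESeq2 or limma, where 19.2% (PQ) and 18.7% (NAC) of all genes tested passed by edgeR, so that 0 of 5 says little about the list, while 3 in PQ and 2 in NAC had an unadjusted p under 0.05 by edgeR. The most abundant were Adprh (a mean of 41.8 FPKM) and Oard1 (18 FPKM), and Oard1 fell by 0.58 in PQ against NAC (adjusted p = 0.00559, edgeR), a call lost without NSC 10 (0.0702) or the NucleoSpin PQ library (0.0908), the lowest of 14 being 0.00126. Among genes of NAD supply, the substrate of PARPs, 6 of 9 were tested and none passed in PQ against control by edgeR, DESeq2 or limma, where 19.2% of all genes tested passed by edgeR, with 0 under an unadjusted p of 0.05 by edgeR. Nampt, which encodes the rate-limiting enzyme of NAD salvage and was the most abundant at 51.6 FPKM, fell in NAC against control by 0.61 (adjusted p = 1.89e-04, edgeR), and Nadk, next at 35.1 FPKM, had -0.13. In PQ against NAC 3 of the 6 rose, where 31.6% of all genes tested passed, with a median of 0.49. These were Nampt (0.53), Nmnat1 (0.62) and Nmnat2 (0.44), and the alternatives gave 1 to 4 rises. Nmrk1 did not pass (0.60, adjusted p = 0.0553, edgeR) but did so in 6 of 14 alternatives. With DESeq2 the rises of Nmnat1 (adjusted p = 0.074) and Nmnat2 (0.0541) were lost. That of Nmnat1 passed in 9 of 14 alternatives and was lost without NSC 10 (adjusted p = 0.0525), NSC 13 (0.0832), the NucleoSpin PQ library (0.058) or NSC 9 (0.0746) by edgeR, the lowest being 0.00315. That of Nmnat2 passed in 8 and was lost without the same libraries (0.0842, 0.0796, 0.101 and 0.0637) and with the labelled preparation as a covariate (0.0737) by edgeR, the lowest being 0.0101. Of the 4 other deltex genes, Dtx4 rose in PQ against control (0.31, adjusted p = 0.038, edgeR) but passed in 7 of 14 alternatives, and not with DESeq2, limma or the labelled preparation as a covariate (adjusted p = 0.0547, edgeR), nor without the NucleoSpin PQ library (adjusted p = 0.407), the NucleoSpin control (0.107) or NSC 8 (0.0561) by edgeR, the lowest being 0.0345. Dtx1 had 0.60 in PQ against control (adjusted p = 0.0616, edgeR) and passed there in 2 of 14 alternatives. In PQ against NAC, where 31.6% of all genes tested passed, Dtx1 rose by 0.68 (adjusted p = 0.0224, edgeR). That call passed in 9 of 14 alternatives, and not with DESeq2 (adjusted p = 0.081) or limma at either offset (0.0908 and 0.0824).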
